A study of Mus musculus with 20 samples.

Results

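Imprinted genes of the mouse liver were described at 38 genes of 19 chromosomal loci, out of 55450 genes in the GENCODE M21 annotation. They were listed by name as imprinted genes, or as host and neighbouring genes of imprinted ones. For each gene, CpGs were taken from 5 kb upstream of the transcription start site (TSS) to the end of the gene, and a CpG was kept where at least 10 reads covered it in at least 3 libraries of each of the 4 groups. All 38 genes held at least 1 kept CpG, and together they held 1651 of the 922846 kept CpGs of the genome. Within these windows, a near-50% stretch was a run of at least 5 neighbouring kept CpGs, each with a mean methylation of 30 to 70% over the groups and with gaps of at most 500 bp. The windows held 32 of the 3003 such stretches found in the genome. A mean over the groups sets this rule, so a stretch with a different level at each age can enter it too.

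Genomic imprinting leaves 1 parental allele of a gene expressed and the other silent, according to a methylation mark laid down in the egg or the sperm. The mark sits in an imprinting control region, methylated on 1 allele only, and it is kept through the wave of demethylation after fertilisation by proteins that bind the methylated copy, among them the zinc finger protein ZFP57. Most of these regions carry the mark from the egg and lie at the promoter of a gene expressed from the paternal copy, often an antisense RNA or a retrogene within an intron of a host gene, while neighbouring genes of a cluster are silenced through it.

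Reduced representation bisulfite sequencing (RRBS) of bulk liver DNA was available for 20 wild-type C57BL/6J mice labelled male, 5 per group and each from its own litter. AME-d21 were weanlings of dams on a Western diet from 5 weeks before mating through pregnancy and lactation that were also stressed late in gestation. Con-d21 were weanlings of dams on the control diet without that stress. AME-d0 and Con-d0 were newborns of dams under the same conditions up to birth, taken by caesarean section and so without exposure through lactation. The d21 pups had been fasted before collection. Diet and stress were always given together, so their parts cannot be told apart, and because the mice are inbred, reads cannot be given to a parental allele: a level near 50% can be 1 methylated allele or a mixture of cells.

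The libraries held 23248139 to 45769589 reads over CpGs, and 604188 CpGs had at least 10 reads in all 20. AME-d0 replicates 1 and 3 stood apart with mean methylation of 31.9 and 33.0% over these shared CpGs, where the other d0 libraries had 33.7 to 35.3%. AME-d21 replicate 4 went against its label, with 2.86 X reads per 100 autosomal reads where all other libraries had 1.39 to 1.53, and 16.3 reads per 1000000 on the Y short arm where the others had 169 to 218. For each comparison of 2 groups, the counts of called stretches, bins and CpGs are given with and without those of its libraries that are named here. AME-d0 replicates 1 and 3 were taken as the lowest of the d0 libraries, not by the gap rule given at the end.

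The sequences of 6 near-50% stretches are shown because the results turn on them. The first pair, at Kcnq1ot1 and Mcts2, were not called between the ages with all libraries in the fit. The one at Grb10 had the largest negative difference between AME-d0 and Con-d0, and those at Nap1l5, Inpp5f and Cdkn1c were higher at d21 than at d0. They are the plus strand of GRCm38 (mm10) from RefSeq, 5′ to 3′, at chr7:143295469-143295618, chr2:152686873-152686971, chr11:12025628-12025804, chr6:58906634-58906878, chr7:128688048-128688301 and chr7:143465354-143465472. Capitals mark the measured CpGs.
Kcnq1ot1: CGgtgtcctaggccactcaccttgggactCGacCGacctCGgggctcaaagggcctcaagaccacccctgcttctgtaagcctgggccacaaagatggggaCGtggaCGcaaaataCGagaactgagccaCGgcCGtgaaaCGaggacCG
Mcts2 stretch 1: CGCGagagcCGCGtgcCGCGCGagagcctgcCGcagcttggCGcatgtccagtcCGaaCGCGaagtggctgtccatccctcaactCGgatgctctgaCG
Grb10 stretch 1: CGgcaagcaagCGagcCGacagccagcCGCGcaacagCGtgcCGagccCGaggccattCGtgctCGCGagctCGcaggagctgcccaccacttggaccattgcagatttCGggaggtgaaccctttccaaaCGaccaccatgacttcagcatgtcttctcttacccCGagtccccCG
Nap1l5: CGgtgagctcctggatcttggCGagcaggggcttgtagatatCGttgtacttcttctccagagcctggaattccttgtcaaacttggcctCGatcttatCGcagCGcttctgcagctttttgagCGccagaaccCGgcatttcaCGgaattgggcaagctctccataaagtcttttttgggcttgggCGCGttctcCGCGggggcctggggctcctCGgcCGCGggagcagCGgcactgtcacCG
Inpp5f: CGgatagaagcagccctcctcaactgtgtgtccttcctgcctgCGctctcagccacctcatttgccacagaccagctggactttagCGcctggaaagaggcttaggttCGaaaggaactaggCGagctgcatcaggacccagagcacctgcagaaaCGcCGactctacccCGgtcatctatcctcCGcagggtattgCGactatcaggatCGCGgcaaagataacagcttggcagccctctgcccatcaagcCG
Cdkn1c: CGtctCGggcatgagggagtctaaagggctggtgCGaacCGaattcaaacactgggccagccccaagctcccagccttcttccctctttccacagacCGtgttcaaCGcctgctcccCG

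Of the 1651 kept CpGs, 604 (36.6%) had a mean of 30 to 70%, against 12.2% of the kept CpGs of the whole genome. A further 650 (39.4%) were under 20% and 265 (16.1%) over 80%, against 49.0% and 27.9% of the genome. The genes fell into distinct kinds of window, shown in the plot of CpG levels by gene. In the Nespas window, an antisense RNA gene of the Gnas cluster, 110 of 111 CpGs were at 30 to 70%, as were 147 of 182 in the window of Gnas, which encodes the stimulatory G protein alpha subunit from several promoters. All 26 CpGs of Peg13, a paternally expressed non-coding RNA gene, all 18 of the retrogene Nap1l5 and all 11 of the antisense RNA gene Kcnq1ot1 lay in that range.

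**Figure D1:**
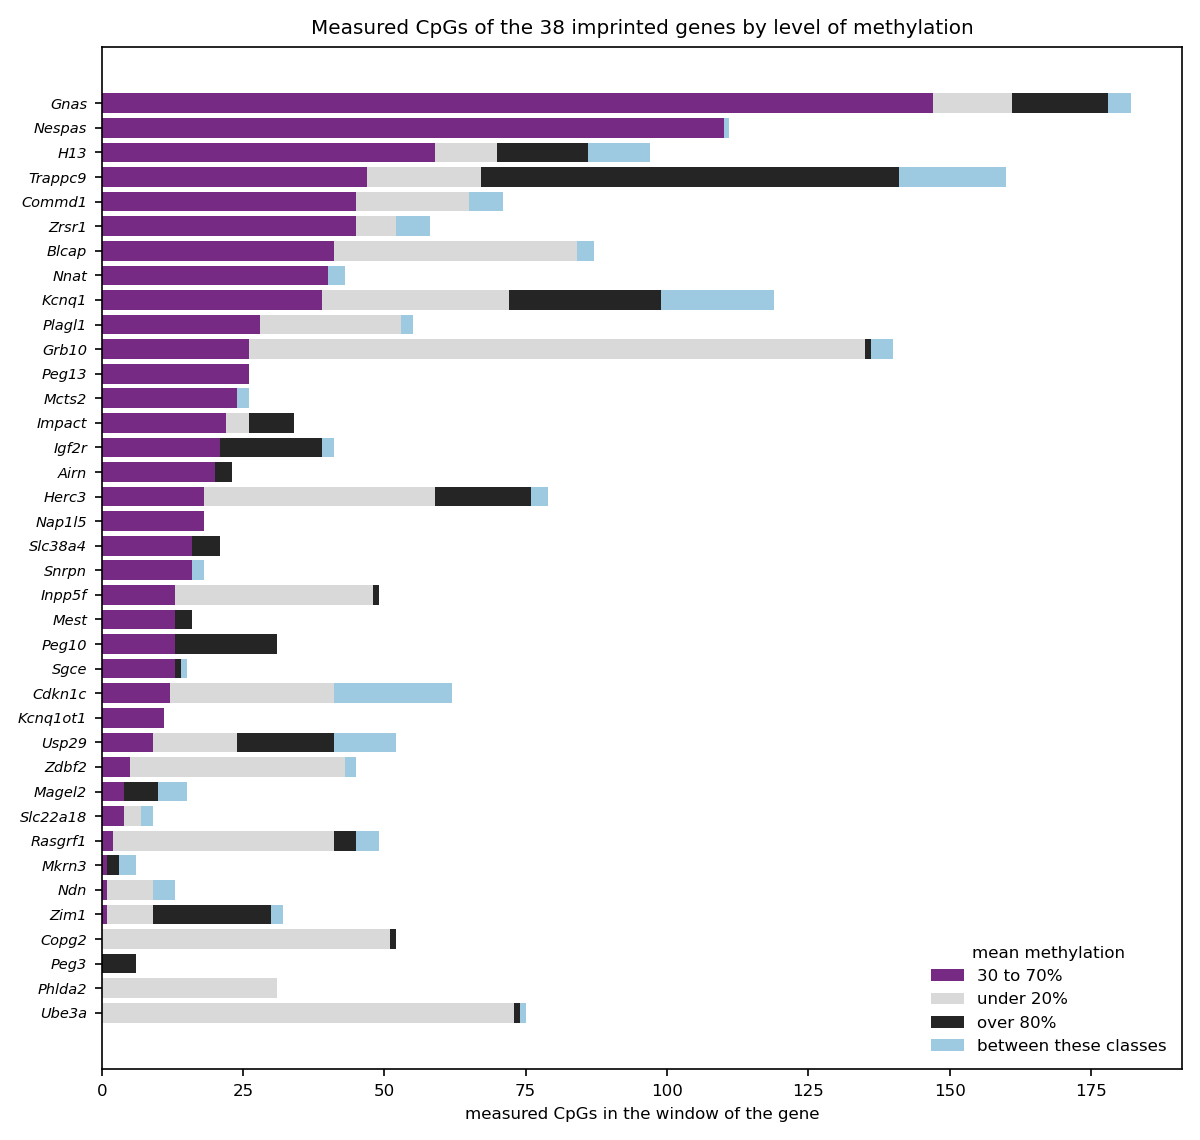
Number of kept CpGs (horizontal axis) in the window of each of the 38 imprinted genes, as stacked bars by mean methylation over the 4 groups (30 to 70%, under 20%, over 80% and between these classes). Nearly all CpGs of Nespas, Peg13, Nap1l5 and Kcnq1ot1 were at 30 to 70%, whereas those of Phlda2, Copg2 and Ube3a were nearly all under 20% and the 6 of Peg3 all over 80%.

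No near-50% stretch was found for 12 genes, and at 3 of the 19 loci, Peg3, Rasgrf1 and Zdbf2, none of the genes had one. Whether kept CpGs of these 3 loci lay in their imprinting control regions was not tested. The lack of a stretch is therefore no reading of those regions. All 6 kept CpGs of Peg3, a zinc finger protein gene whose promoter carries the imprint of its domain, were over 80% with a median of 91.2%, so no kept CpG of its window was near 50%. The longest runs at 30 to 70% held 3 CpGs at its neighbour Usp29 (mean 43.4%), 3 at Zdbf2 (63.0%), 3 at Magel2 (43.8%) and 2 at the transporter gene Slc22a18 (32.8%), short of the 5 the rule asks for. Zim1, Ndn, Mkrn3 and Rasgrf1 had isolated CpGs in the range. The CpGs of Phlda2, a maternally expressed gene that limits placental growth, were under 20% at all 31 positions, those of the coatomer gene Copg2 at 51 of 52 and those of the ubiquitin ligase gene Ube3a at 73 of 75.

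The 32 stretches belonged to the windows of 26 genes at 16 loci. They spanned 32 to 1449 bp (median 167 bp) with 5 to 58 CpGs (median 12.5), and 36 to 2038 reads per library stood behind a value. Their means ran from 33.7 to 51.8% with a median of 43.0%, and 27 of 32 were under 50%. All but 1 lay within an annotated gene of the set, 20 overlapped an exon, and 26 were within 1 kb of a TSS of the set. In 30 of 32 stretches the means of all 4 groups were between 30 and 70%. The values below are percent methylation of a stretch, that is methylated over all reads summed over its CpGs, for replicates 1 to 5 of each group.

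Among the antisense and other long non-coding RNA genes, the Kcnq1ot1 stretch (chr7:143295469-143295618, 11 CpGs) lay in the exon of the RNA that silences the Kcnq1 domain in cis, within Kcnq1. Its methylation was 41.3, 50.7, 38.3, 26.6 and 49.8% in AME-d21 and 43.7, 29.0, 40.6, 34.7 and 32.8% in Con-d21. At birth it was 37.6, 30.7, 30.8, 40.2 and 33.1% in AME-d0 and 47.4, 25.4, 44.0, 31.2 and 37.5% in Con-d0. The 4 groups overlapped, and no group kept to one side of another. Airn silences Igf2r, the receptor gene that clears IGF2, and its stretch (chr17:12741590-12742368, 19 CpGs) lay 192 bp from its TSS inside an intron of Igf2r. It was at 47.0, 30.6, 33.7, 40.9 and 43.0% in AME-d21 and 43.0, 47.2, 37.6, 37.0 and 31.2% in Con-d21. The d0 values were 53.1, 43.2, 29.4, 43.2 and 41.3% in AME-d0 and 30.4, 44.9, 42.8, 56.6 and 47.6% in Con-d0. All groups overlapped here too. The Peg13 stretch (chr15:72809784-72810676, 26 CpGs), within the host gene Trappc9, was lower, at 48.1, 36.0, 32.8, 19.4 and 41.4% in AME-d21 and 22.9, 44.1, 29.5, 29.3 and 55.5% in Con-d21. Newborns had 38.2, 33.1, 24.5, 37.3 and 36.9% in AME-d0 and 28.1, 54.4, 37.6, 35.8 and 35.1% in Con-d0. The spread within each group was wide, and the groups overlapped.

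The Gnas cluster on chromosome 2 held 9 stretches, the most of any locus. The longest of the set, Gnas stretch 4 (chr2:174299016-174300464, 58 CpGs), had 782 to 2038 reads per library. It had the smallest spread within groups, with a within-group SD of 3.92 points. It was at 52.0, 45.5, 49.5, 46.9 and 48.4% in AME-d21 and 48.7, 48.7, 42.7, 43.3 and 46.1% in Con-d21. At d0 it was at 31.3, 44.0, 31.7, 32.7 and 43.0% in AME-d0 and 46.3, 39.8, 42.1, 41.1 and 41.9% in Con-d0. AME-d0 replicates 1, 3 and 4 were the lowest of the 20 libraries. In Gnas stretch 6 (chr2:174328544-174328739, 24 CpGs), the stretch with the lowest mean, the values were 44.5, 28.6, 48.2, 32.9 and 48.7% in AME-d21 and 38.1, 23.2, 22.3, 25.9 and 38.5% in Con-d21. The newborn values were 53.1, 25.7, 34.7, 29.9 and 18.6% in AME-d0 and 46.3, 31.8, 33.1, 28.0 and 20.5% in Con-d0. Single libraries of all groups lay under 30%. Nespas, the antisense RNA of the cluster, had a stretch over its TSS (stretch 1, chr2:174285424-174285724, 12 CpGs) at 42.5 ± 4.81% in AME-d21, 41.2 ± 6.00% in Con-d21, 38.7 ± 8.68% in AME-d0 and 40.2 ± 6.45% in Con-d0 (means ± SD over 5 libraries). Its group means lay within the SDs of each other.

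The retrogenes within host introns gave further stretches. Mcts2 lies within H13, a signal peptide peptidase gene, and its stretch 1 (chr2:152686873-152686971, 14 CpGs, 65 bp from the TSS) was at 50.6, 64.3, 44.0, 41.5 and 52.2% in AME-d21 and 49.0, 41.0, 61.1, 51.1 and 44.7% in Con-d21. The d0 livers had 44.2, 55.7, 37.4, 45.5 and 41.7% in AME-d0 and 58.1, 52.4, 39.8, 47.6 and 41.7% in Con-d0. None of the groups stood apart. At the splicing factor retrogene Zrsr1 and its host Commd1, the stretch with the most CpGs (chr11:22972845-22973169, 21 CpGs) was at 25.5, 45.5, 40.5, 33.1 and 36.2% in AME-d21 and 61.9, 38.2, 48.0, 48.2 and 45.5% in Con-d21. In newborns it was at 29.9, 40.8, 29.8, 42.8 and 45.6% in AME-d0 and 38.5, 37.0, 42.4, 51.7 and 43.9% in Con-d0. The AME-d21 replicate 1 value was the lowest and the Con-d21 replicate 1 value the highest of the 20. Nnat, a proteolipid gene within an intron of Blcap, had a stretch over its TSS (chr2:157560098-157560478, 30 CpGs) at 43.0, 52.5, 48.9, 52.4 and 47.6% in AME-d21 and 64.7, 54.9, 49.2, 54.0 and 49.4% in Con-d21. Its d0 values were 46.8, 35.7, 41.4, 36.9 and 53.1% in AME-d0 and 54.0, 40.4, 41.4, 41.9 and 52.6% in Con-d0. The groups overlapped.

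Paternally expressed protein genes with the mark at their promoter made up most of the rest. Snrpn encodes a splicing factor, and its stretch (chr7:60004900-60005229, 15 CpGs, over a TSS) was at 61.1, 40.4, 42.1, 40.2 and 46.2% in AME-d21 and 40.3, 45.2, 44.7, 42.7 and 56.5% in Con-d21. At d0 it was at 28.8, 32, 27.9, 33.7 and 53.9% in AME-d0 and 50.1, 28.5, 44.6, 47.3 and 34.7% in Con-d0. AME-d21 replicate 1 and AME-d0 replicate 5 were high against the rest of their groups. Peg10, derived from a retrotransposon, shares its promoter region with the sarcoglycan gene Sgce, and the stretch there (chr6:4747355-4747490, 13 CpGs) was at 54.3, 49.8, 41.5, 50.8 and 53.9% in AME-d21 and 57.0, 57.3, 52.3, 34.3 and 53.5% in Con-d21. The newborns had 34.7, 34.0, 17.9, 44.5 and 43.1% in AME-d0 and 58.3, 41.9, 41.3, 42.7 and 50.8% in Con-d0. AME-d0 replicate 3 was the lowest library of the 20, and Con-d21 replicate 4 was low in its group. The stretch of the zinc finger gene Plagl1 (chr10:13090623-13090981, 26 CpGs) was at 44.6, 40.1, 54.4, 34.7 and 46.3% in AME-d21 and 44.8, 45.7, 51.6, 39.7 and 59.4% in Con-d21. At birth the values were 31.1, 44.8, 35.7, 54.1 and 43.8% in AME-d0 and 31.0, 43.8, 49.5, 45.1 and 39.1% in Con-d0. Here all groups overlapped.

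Mest, of the alpha/beta hydrolase family, had 45 to 333 reads per library in its stretch. It had the widest spread of the set, with a within-group SD of 17.0 points. Its stretch (chr6:30735330-30735477, 9 CpGs) was at 62.2, 19.4, 52.6, 52.9 and 34.2% in AME-d21 and 40.4, 57.8, 55.1, 38.2 and 46.4% in Con-d21. It was at 38.8, 27.5, 60.0, 67.6 and 29.9% in AME-d0 and 39.6, 75.8, 19.6, 36.9 and 28.2% in Con-d0. Single libraries ran outside 30 to 70% in all but 1 of the groups. Impact, a regulator gene of the GCN2 pathway, had a stretch (chr18:12973219-12973506, 22 CpGs) at 45.3, 38.8, 58.7, 38.7 and 45.4% in AME-d21 and 41.7, 49.7, 40.3, 46.3 and 42.9% in Con-d21. Its newborn values were 37.1, 48.0, 34.2, 51.2 and 36.5% in AME-d0 and 33.5, 47.8, 46.4, 41.9 and 37.1% in Con-d0. The groups overlapped throughout. The amino acid transporter gene Slc38a4 had a stretch at 1 of its TSSs (stretch 2, chr15:97055184-97055321, 7 CpGs, 636 bp away) at 31.1, 36.1, 48.7, 51.0 and 41.5% in AME-d21 and 32.7, 36.7, 44.3, 53.5 and 49.2% in Con-d21. At d0 it was at 31.7, 32, 33.3, 38.9 and 40.1% in AME-d0 and 35.2, 43.2, 38.5, 46.3 and 47.0% in Con-d0. No group stood apart from another.

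**Figure D2:**
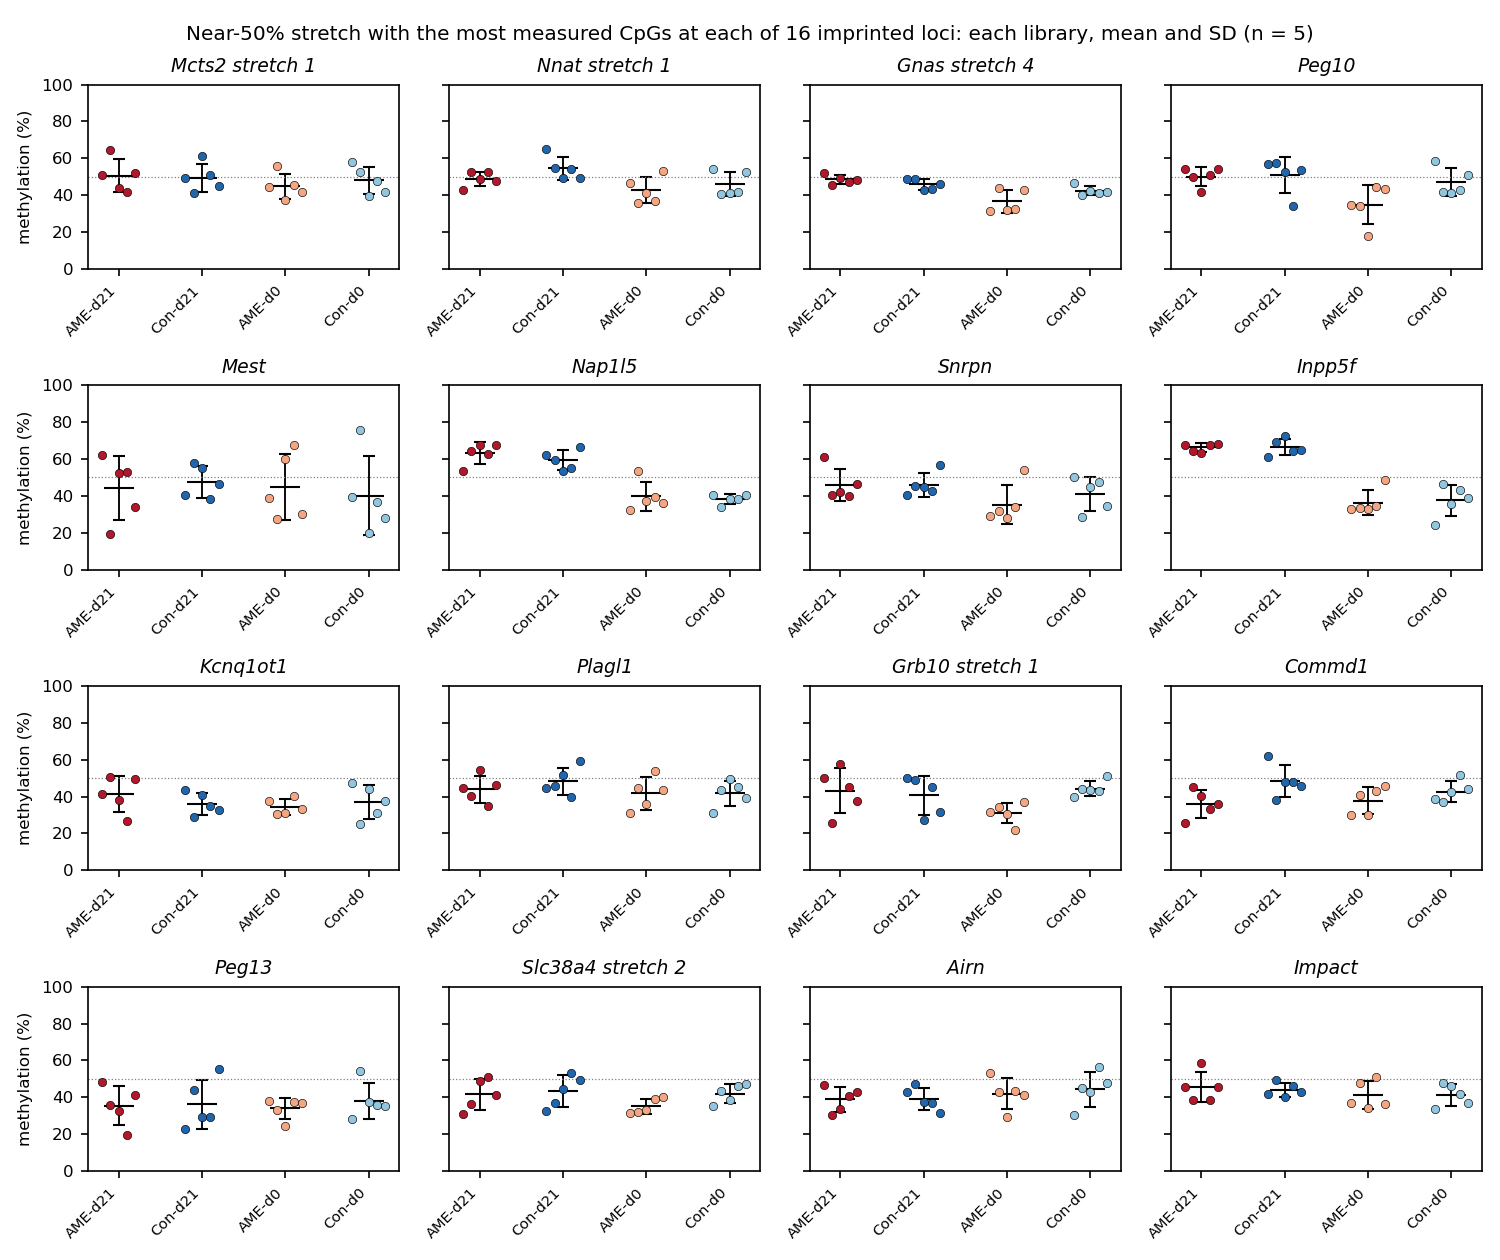
Percent methylation of the near-50% stretch with the most CpGs at each of 16 loci, in each of the 20 libraries (points), with the mean (long line) and SD (whiskers) of the 5 libraries of a group and a dotted line at 50%. The groups overlapped in most panels, while Nap1l5 and Inpp5f were higher in the d21 groups than in the d0 groups.

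The libraries of 1 group differed from each other by a median SD of 7.74 points over the 32 stretches, with a range of 3.92 to 17.0, and the median over the other 2971 near-50% stretches was 6.12. Counting error alone would give 2.45 points if every read of a stretch were a separate molecule, and 8.12 if only the reads of its deepest CpG were. Neighbouring CpGs are read by the same molecules, so the counting error lies between those values unless reads are PCR copies, and how much of the spread is counting was not tested. These figures cover counting error only.

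The change with age was read between weaning and birth, within the AME offspring and within the offspring of control dams. In AME, 9 of 32 stretches differed at an adjusted p under 0.05 (limma on percent methylation with Benjamini-Hochberg adjustment over all near-50% stretches; this is meant by called), 8 higher and 1 lower at d21 (28.1%), and percent called over all 2996 was 71.1. In Con, 4 of 32 were called, 3 higher and 1 lower (12.5%), beside 70.8 percent of 3003. The median size of the difference was 6.95 points in AME and 4.10 in Con, against 20.6 and 19.3 over all near-50% stretches. With its sign, the median was +6.28 points in AME, with 24 of 32 stretches higher at d21, and +2.46 in Con, with 21 higher, against +7.38 and +5.64 over all near-50% stretches. Without AME-d0 replicates 1 and 3, the AME median was 6.85 points in size and +5.63 with its sign, and without AME-d21 replicate 4 it was 5.58 and +5.36. A difference within 10 points was found for 23 of 32 stretches in AME and 28 in Con, against 30.4% and 31.5% of the other near-50% stretches. In AME it was 23 as well without AME-d0 replicates 1 and 3, and 18 without AME-d21 replicate 4. The limma interval of the age difference lay wholly within 15 points for 12 of 32 stretches in AME and 22 in Con. It lay wholly within 20 points for 23 in AME and 26 in Con. For the remaining stretches, an age difference of more than 20 points was not excluded. Among stretches with at least 10 CpGs, 6 of 20 of the set were called in AME and 2 of 20 in Con, against 74.3% and 71.6% of the others. The near-50% stretches are chosen by a mean over both ages, so regions that move between a low and a high level with age can enter them. Over all 200-bp bins of the genome, which are not chosen by level, the median size of the age difference was 7.35 points in AME and 6.32 in Con. The bins are not matched in level to the stretches. Of the kept CpGs of the genome, 49.0% were under 20% and 27.9% over 80%.

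The same 4 stretches were called in both maternal groups. Nap1l5 is a paternally expressed retrogene within Herc3, and its stretch lay in its coding exon (chr6:58906634-58906878, 18 CpGs). It was at 53.6, 64.4, 67.8, 62.4 and 67.6% in AME-d21, against 32.4, 53.2, 37.3, 39.5 and 36.4% in AME-d0. In controls it was at 62.4, 59.4, 53.3, 55.4 and 66.7% in Con-d21, against 40.7, 34.0, 38.4, 38.3 and 40.4% in Con-d0. The ages did not overlap in either maternal group, and all 18 CpGs had the higher mean at d21. The difference was +23.4 points in AME (95% interval 14.6 to 32.2, limma adjusted p = 5.91e-05) and +21.1 in Con (14.3 to 27.9, limma adjusted p = 1.58e-05).

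Inpp5f, an inositol phosphatase gene with an imprinted promoter in an intron, had a stretch beside that promoter (chr7:128688048-128688301, 13 CpGs, 189 bp from a TSS). It was at 67.8, 64.3, 63.2, 67.7 and 68.2% in AME-d21, against 32.9, 33.2, 33.0, 34.4 and 48.4% in AME-d0. The control values were 61.2, 69.3, 72.2, 64.1 and 65% in Con-d21, against 24.4, 46.3, 35.4, 42.9 and 38.7% in Con-d0. Every d21 library was above every d0 library, at each maternal condition, and so was the mean of each of the 13 CpGs. This was the largest difference of the set, +29.9 points in AME (22.3 to 37.5, limma adjusted p = 6.29e-07) and +28.8 in Con (20.4 to 37.2, limma adjusted p = 5.07e-06).

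The third was intergenic, 4304 bp upstream of Cdkn1c, a maternally expressed cell cycle inhibitor gene (chr7:143465354-143465472, 7 CpGs). It was at 57.9, 53.0, 44.6, 60.3 and 56.6% in AME-d21, against 40.4, 40.6, 32.6, 39.7 and 33.0% in AME-d0. In Con the values were 54.6, 49.0, 66.2, 48.1 and 61.7% in Con-d21, against 21.1, 30.8, 30.8, 27.2 and 43.2% in Con-d0. The ages were separate in each maternal group. The difference was +17.2 points in AME (9.48 to 24.9, limma adjusted p = 0.000375) and +25.3 in Con (16 to 34.6, limma adjusted p = 6.43e-05). All 7 CpGs were higher at d21 in Con and 6 of 7 in AME.

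Slc38a4 stretch 1 (chr15:97049990-97050091, 5 CpGs), over a downstream TSS of the gene, went the other way. It was at 36.9, 40.9, 28.2, 31.7 and 39.6% in AME-d21, against 51.6, 60.8, 62.0, 60.8 and 46.7% in AME-d0. Controls had 28.5, 35.4, 41.4, 41.5 and 23.3% in Con-d21, against 47.3, 51.2, 47.9, 53.4 and 60.7% in Con-d0. All d21 libraries were below all d0 libraries of their maternal group. The difference was -20.9 points in AME (-29.2 to -12.7, limma adjusted p = 0.000102) and -18.1 in Con (-26.6 to -9.61, limma adjusted p = 0.000645). Its CpGs differed unevenly, as the plot of methylation along the stretches shows. Over the libraries with at least 10 reads, the 2 CpGs at its right end on the plus strand averaged 24.1 and 23.0% in AME-d21, 20.7 and 20.3% in Con-d21, 52.6 and 65.4% in AME-d0, and 49.4 and 81.3% in Con-d0.

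**Figure D3:**
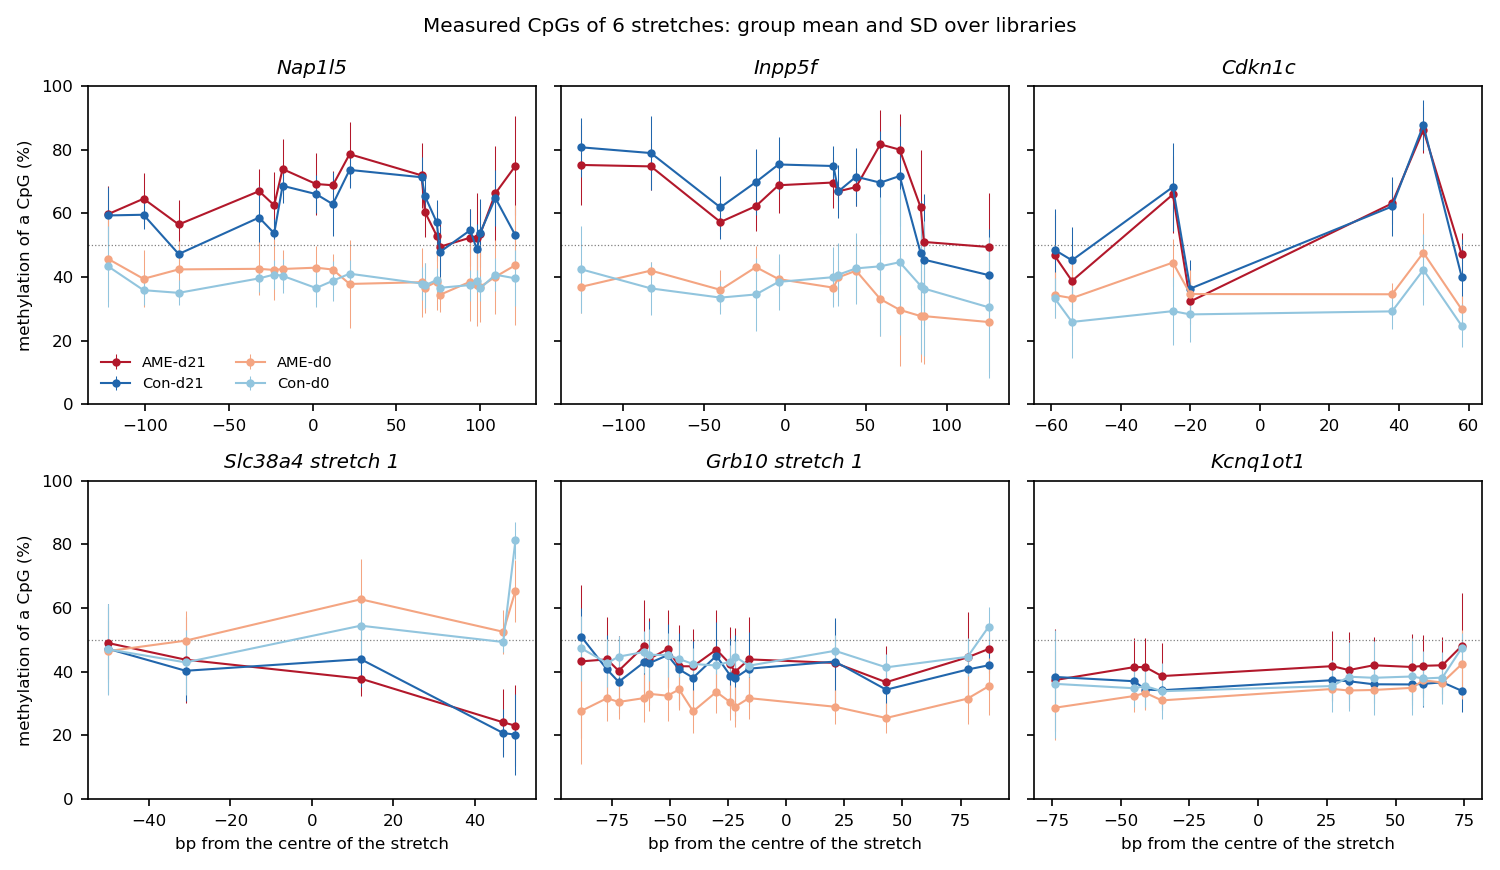
Mean percent methylation (points) and SD over libraries (vertical lines) of each kept CpG in the 4 groups along 6 stretches, against the distance in bp from the centre of the stretch. The d21 lines lay above the d0 lines along the whole of Nap1l5 and Inpp5f.

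Another 5 stretches were called in AME alone, all higher at d21, namely Gnas stretch 3 (+9.47 points, limma adjusted p = 0.0369), Gnas stretch 4 (+11.9, 0.00613), Peg10 (+15.2, 0.00636), Grb10 stretch 1 (+12.1, 0.0378) and Grb10 stretch 2 (+12.3, 0.0285). Of these 5, 0 were called without AME-d0 replicates 1 and 3, where the differences were 5.58, 8.57, 9.52, 12.1 and 6.77 points in the same order. The 4 stretches called in both maternal groups were still called then, and 2 others were called, Nnat stretch 2 and Gnas stretch 6, beside 66.8 percent of all near-50% stretches. Without AME-d21 replicate 4, 10 stretches were called, beside 69.6 percent of all. Newly called were Kcnq1ot1 (+10.5 points, limma adjusted p = 0.0232), Zrsr1 stretch 1 (+11.3, 0.0323) and Zrsr1 stretch 2 (+10.4, 0.0390). No longer called were Grb10 stretch 1 (+11.6, 0.0687) and Grb10 stretch 2 (+11.2, 0.0638). No difference between the age changes of AME and Con passed a limma interaction test (0 called of 32, percent called 0 over 2996). An unadjusted p under 0.05 was found for 1 of 32, against 5.41% over all near-50% stretches. The counts of the 32 were the same without AME-d0 replicates 1 and 3. The smallest interaction p was at Grb10 stretch 1, with a larger change in AME by 15.7 points (1.19 to 30.3, limma adjusted p = 0.827).

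**Figure D4:**
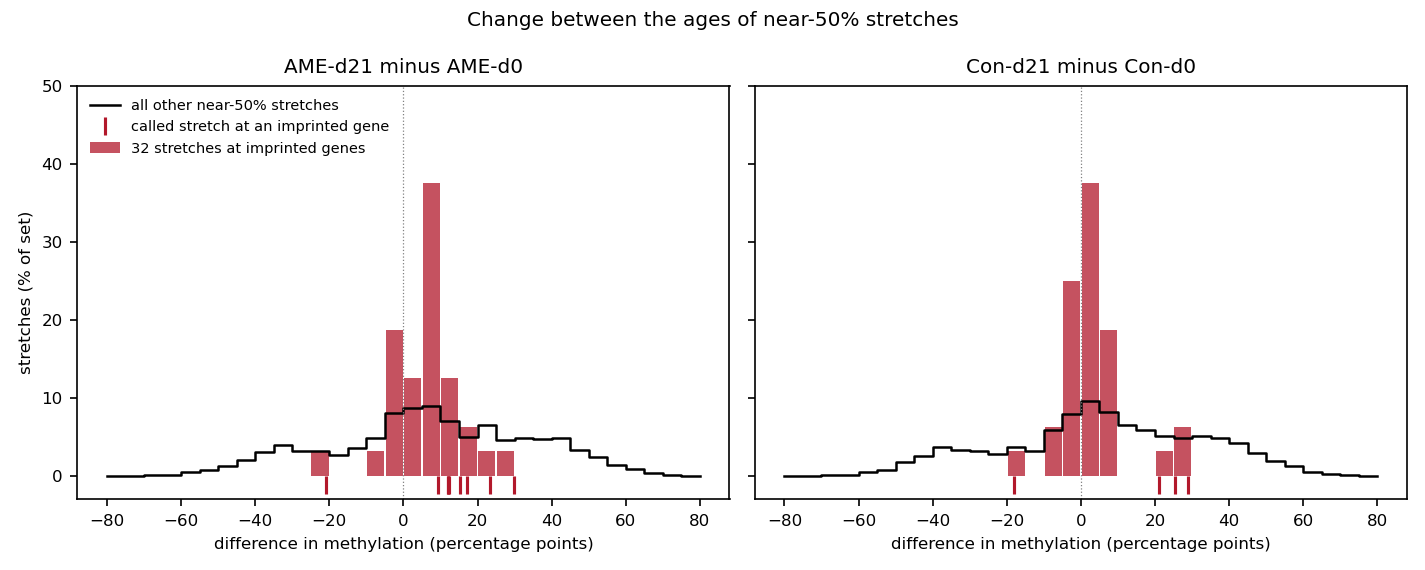
Difference between d21 and d0 (horizontal axis, percentage points) as a share of the set (vertical axis, percent) for the 32 stretches in the windows of the listed genes (filled bars) and the other near-50% stretches of the genome (black line), in AME and in Con, with ticks under the axis at called stretches of the 32. The 32 stretches spread less widely than the others, with median sizes of 6.95 points in AME and 4.10 in Con, against 20.6 and 19.3 over all near-50% stretches. Over all 200-bp bins of the genome, which are not matched in level to the stretches, the median sizes were 7.35 and 6.32. Most of the 32 lay above 0, at 24 of 32 in AME and 21 of 32 in Con.

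In all, the ages were separate without overlap at 5 stretches in AME and 4 in Con, where percent called by that criterion was 57.9 and 58.5 over all near-50% stretches. The 4 in Con were Nap1l5, Inpp5f, Cdkn1c and Slc38a4 stretch 1, and the 5 in AME were these and Gnas stretch 4. Markers of cell types moved with age in the same libraries, as read from promoters within 1 kb of the TSS (percent called 18.7 in AME and 18.8 in Con over all promoters, and 2.95 and 3.61 counting lower ones only). Of 12 hepatocyte markers, 4 were measured and 3 were lower at d21 in both maternal groups (F2, Pck1 and Fgb), and their mean over the 4 was 17.1 to 22.0% in AME-d21, 14.5 to 22.9% in Con-d21, 40.7 to 45.1% in AME-d0 and 44.9 to 46.5% in Con-d0. The promoter of Alb, the defining hepatocyte gene, was not measured. Of 10 blood cell markers, 2 were measured and both rose with age (Cd48 and Csf3r), with means of 56.1 to 62.9% in AME-d21, 60.4 to 66.1% in Con-d21, 18.1 to 27.0% in AME-d0 and 17.9 to 31.4% in Con-d0. Among 4 measured erythroid markers 2 rose (Ermap and Epor), and among 3 measured endothelial markers 2 rose (Eng and Tie1), in both maternal groups. In bulk tissue, a shift in the share of cell types and a change within cells cannot be told apart, and the part of cell types in the age differences was not tested.

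The maternal comparison asked whether the 32 stretches differed between AME and Con at either age. At d0, AME-d0 and Con-d0 differed at 0 of 32 stretches by limma (percent called 0 over 3003), with 3 of 32 at an unadjusted p under 0.05. At d21, AME-d21 and Con-d21 differed at 0 of 32 (percent called 0 over 2996), with 2 of 32. Over all near-50% stretches, 6.66% at d0 and 5.54% at d21 had an unadjusted p under 0.05. Both counts of called stretches were 0 as well without AME-d0 replicates 1 and 3 at d0 and without AME-d21 replicate 4 at d21. An unadjusted p under 0.05 was then found for 2 of 32 at d0 (149 of 3003 overall) and 3 of 32 at d21 (151 of 2999 overall). The d0 comparison shares its AME-d0 libraries with the AME age comparison above. Differences lay between -13.2 and 13.9 points at d0 and between -12.2 and 13.3 at d21, and 29 of 32 stretches were within 10 points at each age. The 95% interval lay wholly within 15 points for 25 stretches at d0 and 26 at d21, and within 20 points for 28 at each age, and smaller differences may not have been detectable with 10 libraries.

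The largest negative difference at d0 was at Grb10 stretch 1 (chr11:12025628-12025804, 16 CpGs), in an intron of an adaptor gene that dampens insulin and IGF receptor signals. It was at 31.5, 34.1, 30.4, 22.1 and 37.2% in AME-d0, against 39.7, 44.0, 43.8, 43.0 and 50.9% in Con-d0. These groups did not overlap, the sole such stretch of the 32 at d0, where percent called by that criterion was 1.1 over all near-50% stretches. The difference was -13.2 points (-20.5 to -5.88, limma adjusted p = 0.638), and -13.1 without AME-d0 replicates 1 and 3. At d21 the stretch was at 49.8, 25.7, 57.9, 45.2 and 37.6% in AME-d21, against 50.2, 48.9, 27.4, 45.3 and 31.7% in Con-d21, and the groups overlapped.

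At Peg10 the d0 difference was -12.2 points, and -6.49 without AME-d0 replicates 1 and 3, and at Gnas stretch 2 it was +13.9, and 20.2 without them. Gnas stretch 2 (chr2:174284763-174284852, 9 CpGs) was at 41.8, 56.4, 32.7, 42.3 and 59.7% in AME-d0, against 21.8, 33.6, 27.5, 52.6 and 27.8% in Con-d0, and the groups overlapped. Neither stretch was called. At d21 no stretch was without overlap between AME-d21 and Con-d21 (percent called 0.668 over all near-50% stretches). The H13 stretch differed by +13.3 points (-0.836 to 27.4), the Commd1 stretch by -12.2 (-21.7 to -2.66) and Gnas stretch 6 by +11 (0.952 to 21). The H13 stretch (chr2:152707638-152707729, 8 CpGs, over an exon) was at 43.8, 35.9, 28.1, 54.2 and 47.5% in AME-d21, against 48.1, 11.7, 40.2, 12.5 and 30.6% in Con-d21. Its values rest on 56 to 271 reads per library. AME-d21 and Con-d21 overlapped at all 3. Without AME-d21 replicate 4 these differences were 10.2, -11.4 and 12.9 points. Over the 32 stretches the median difference at d0 was -2.30 points, with 21 of 32 lower in AME-d0, against -1.55 over all near-50% stretches. It was 0.584, with 15 of 32 lower, without AME-d0 replicates 1 and 3.

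**Figure D5:**
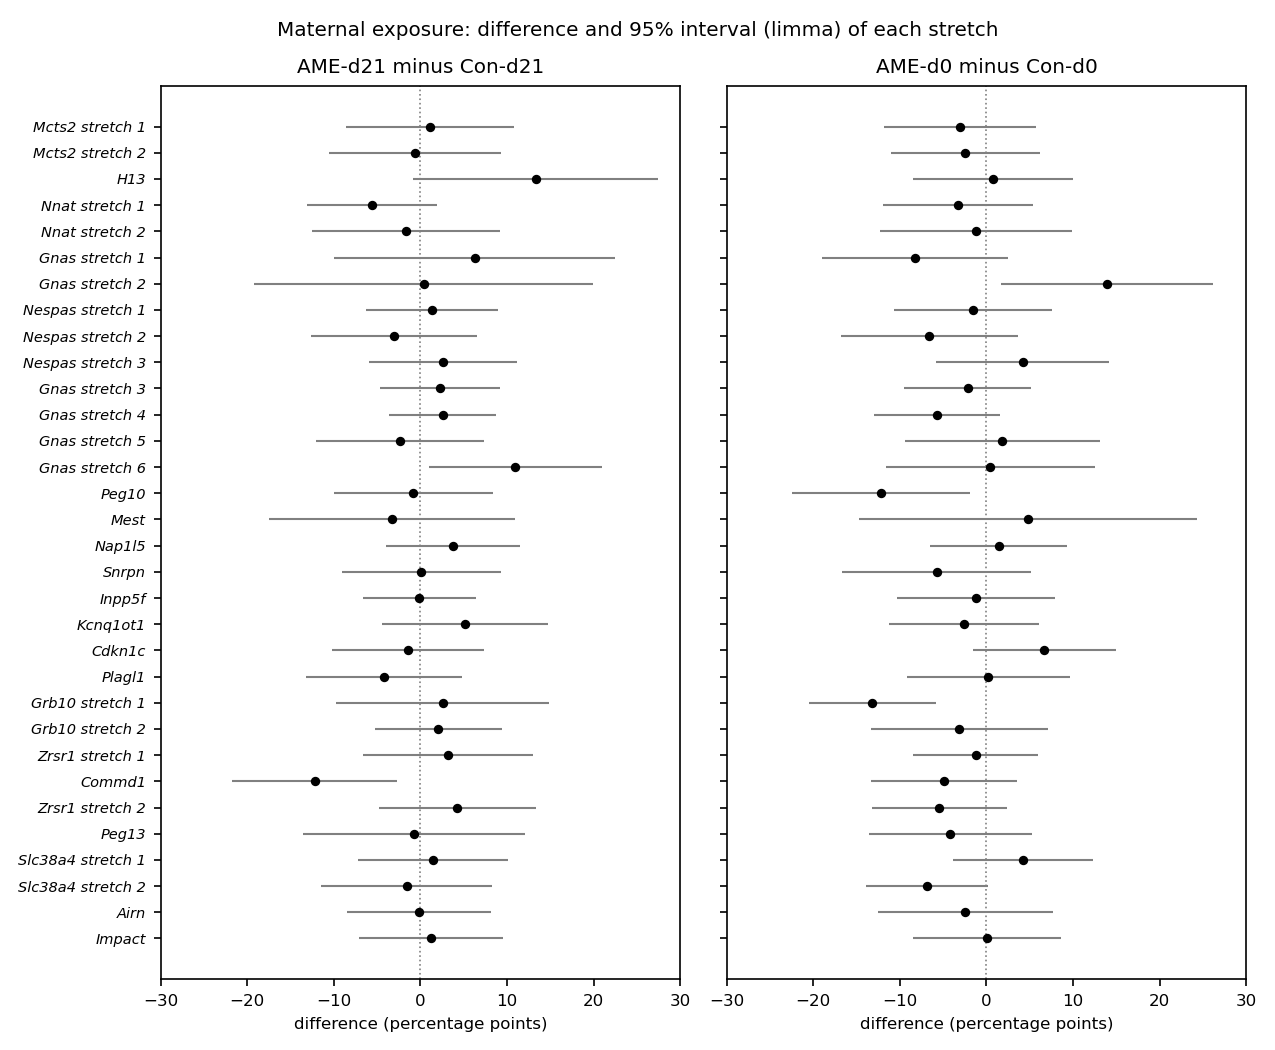
Difference between AME and Con (points, horizontal axis in percentage points, with lines for the 95% limma intervals) at each of the 32 stretches, at d21 and at d0. None was called at either age, and 29 of 32 lay within 10 points at each.

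The whole windows were also read in 200-bp bins with at least 2 kept CpGs (limma on the log2 ratio of the methylated and unmethylated counts, 1 read added to each). In AME, 82 bins were higher and 10 lower at d21 of 243 (37.9%; percent called 46.7, and 3.34 counting lower ones only), and in Con 70 higher and 12 lower of 248 (33.1%; percent called 43.8, and 3.93 counting lower ones only). Without AME-d0 replicates 1 and 3, AME gave 65 higher and 9 lower (percent called 33.2), and without AME-d21 replicate 4 it gave 82 higher and 10 lower of 246 (percent called 44.2). Of the bins that overlapped a near-50% stretch, 12 of 62 (19.4%) were called in AME and 7 of 63 (11.1%) in Con. Elsewhere in the windows it was 80 of 181 (44.2%) and 75 of 185 (40.5%).

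The largest rise in each maternal group lay in Kcnq1, the potassium channel gene, and the next in H13. At chr7:143373201-143373400 in Kcnq1 (2 CpGs), methylation was 83.8 ± 3.77% in AME-d21 against 36.5 ± 7.41% in AME-d0, and 78.4 ± 10.4% in Con-d21 against 37.6 ± 5.18% in Con-d0 (SD, n = 5 each; limma adjusted p = 5.93e-06 and 0.000173). The bin before it at chr7:143373001-143373200 (5 CpGs) rose by 37.0 points in AME and 31.8 in Con. A Kcnq1 bin at chr7:143154801-143155000 (4 CpGs) rose by 39.9 points in AME. The H13 bin at chr2:152671201-152671400 (3 CpGs) was at 66.0% in AME-d21 against 19.4% in AME-d0, and at 61.2% in Con-d21 against 22.2% in Con-d0. A bin of the Inpp5f stretch at chr7:128688201-128688400 rose by 32.6 points in AME. In Con the neighbouring bin at chr7:128688001-128688200 rose by 35.9 points, and a bin of the Cdkn1c stretch by 32.3. Kcnq1 and Trappc9, singled out here after their values were seen, had 13 of 22 and 20 of 33 bins higher in AME and 13 of 22 and 17 of 33 in Con, where percent called counting higher ones only was 43.4 in AME and 39.8 in Con.

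The largest falls were at Slc38a4, Blcap, H13 and Slc22a18. A Slc38a4 intron bin at chr15:97044201-97044400 (2 CpGs) was at 36.9% in AME-d21 against 66.7% in AME-d0, and at 41.9% in Con-d21 against 75.8% in Con-d0. A Blcap exon bin at chr2:157558201-157558400 (5 CpGs) was at 46.6% in AME-d21 against 73.1% in AME-d0, and at 42.4% in Con-d21 against 74.6% in Con-d0. A bin upstream of H13 at chr2:152666601-152666800 fell by 29.98 points in AME and by 31.2 in Con, and the bin of Slc38a4 stretch 1 by 23.2 and 20.6. Slc22a18 fell in a bin at chr7:143475801-143476000 by 19.5 points in AME and, in the next bin, by 17.4 in Con. Between AME and Con, 0 of 248 bins were called at d0 and 0 of 243 at d21 by limma (percent called 0 at each age). An unadjusted p under 0.05 was found for 18 and 14 of them, against 5.52% and 4.94% of all bins. Without AME-d0 replicates 1 and 3, or without AME-d21 replicate 4, 0 were called (percent called 0 for each). An unadjusted p under 0.05 was then found for 14 at d0 (7442 of 160402 overall) and 17 at d21 (8714 of 159789 overall).

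Single CpGs were tested with a quasi-binomial model, and a differentially methylated cytosine had an unadjusted p under 0.001 and a difference of at least 10 points. In AME, 52 of 1210 CpGs of the windows were higher and 7 lower at d21 (percent called 4.14, and 3.41 counting higher ones only), and in Con 52 of 1329 were higher and 7 lower (percent called 3.77, and 2.93 counting higher ones only). Without AME-d0 replicates 1 and 3, 11 were higher and 3 lower in AME (percent called 1.52), and without AME-d21 replicate 4 it was 32 and 3 (percent called 2.68). The count called was 33 to 38 in AME (percent called 2.64 to 2.92) and 36 to 45 in Con (percent called 2.45 to 2.79) when any 1 library was left out. A plain likelihood-ratio test called 197 in AME (percent called 15.6) and 176 in Con (percent called 14). Between AME and Con the count was 0 of 1308 at d0 (percent called 0.000678) and 0 of 1225 at d21 (percent called 0.000305). An unadjusted p under 0.05 was found for 32 and 22 of them, against 1.77% and 1.68% of all CpGs tested. Both genome shares are below the share of 0.05 that chance would give, so this test is conservative. It called 5 of 737410 CpGs over the genome at d0 and 2 of 656708 at d21. With so few called anywhere, finding none in the windows says little about them. The count stayed at 0 without AME-d0 replicates 1 and 3 at d0 and without AME-d21 replicate 4 at d21 (percent called 0 for each), with 18 and 25 at an unadjusted p under 0.05. The likelihood-ratio test gave 1 at d0 (percent called 0.194) and 2 at d21 (percent called 0.12), and limma per CpG gave 0 at each age (percent called 0.0774 at d0 and 0.0475 at d21).

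Promoters of genes that lay down, keep or erase imprints were read from a list of 18, of which 13 were measured, and most were under 1% in all groups. With age 2 of the 13 were called, both higher, in AME and in Con, where percent called counting higher ones only was 15.8 in AME and 15.2 in Con over all promoters. The promoter of Dppa3, which protects the maternal genome from demethylation in the zygote, rose with age in both maternal groups, with 77.7% in AME-d21, 79.4% in Con-d21, 49.1% in AME-d0 and 51.6% in Con-d0. That of Ctcf, an insulator protein gene, passed the test in both at levels of 0.260% in AME-d21, 0.444% in Con-d21, 0.111% in AME-d0 and 0.133% in Con-d0. Of 8 genes of other imprinted domains, 3 were measured (H19, Meg3 and Dio3), and the Dio3 promoter was lower at d21 in Con, at 0.650% in Con-d21 against 1.28% in Con-d0 (limma adjusted p = 0.0425). None of the listed promoters was called between AME and Con at either age (percent called 0 over all promoters at each age).

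The hexamer TGCCGC, which ZFP57 binds when it is methylated, was searched on both strands of a 300-bp window centred on each stretch. It was present in 15 of 32 windows (46.9%), with a mean of 19.4 CpGs per window, against 322 of 2971 windows of the other near-50% stretches (10.8%; 10.9 CpGs) and 6933 of 52977 windows around runs of kept CpGs outside the imprinted genes (13.1%; 14.4 CpGs). The windows differ in how many CpGs they hold, and a match is a run of letters, not a bound site. Within the stretches shown above, Mcts2 stretch 1 held 2 matches, Nap1l5 and Inpp5f 1 each, and Kcnq1ot1, Grb10 stretch 1 and Cdkn1c 0.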

How the data were processed

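RRBS libraries of 20 livers were made from MspI digests and sequenced by the authors as paired ends. Per the submitters' notes, reads were handled with Trim Galore, FastQC, BWA and Bismark on mm10. Deduplication was not given in the sources used here. For each CpG of each library the authors deposited a count of methylated reads, a count of unmethylated reads and a percent methylation, none of them normalized. There were 0 columns of other samples. Groups and replicate numbers came from the labels, and p-values measure the spread between libraries, which includes counting error.

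Positions that are not CG in GRCm38 were left out, genes came from GENCODE M21, and 4331283 CpGs on chromosomes 1 to 19, X and Y were read with Python 3.11.15, numpy 2.4.6, pandas 2.3.3, scipy 1.17.1 and pysam 0.24.0. Libraries held 23248139 to 45769589 reads at CpGs. In R 4.3.3, limma 3.58.1 was fitted to the percent of near-50% stretches, and to 200-bp bins and promoters as log2((methylated + 1)/(unmethylated + 1)), each with Benjamini-Hochberg adjustment over the genome. Features needed 10 reads in every library compared, 5 against 5. CpGs were tested with a quasi-binomial F test, its overdispersion floored at 1, at an unadjusted p under 0.001 and 10 points. Intervals are 95% limma intervals and cover the spread between libraries. The stretch, bin and CpG tests were also run on simulated data. In the final version of these runs, the spread between libraries was estimated from the real ones.

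For each locus the stretch with the most kept CpGs was named, and up to 5 called bins per direction and comparison by size. Other stretches that were called, or largest between AME and Con, were named after their values were seen. Listed promoters were given as counts with up to 3 examples by size. The imprinted genes and the lists were chosen with earlier results of these data known. Alternatives were the coverage minimum, the rule for a stretch, the window, the scale, bin size and filter, the test, a replicate block, a fit of all 20 libraries, and leaving out libraries. The RNA-seq data were not analysed here.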

Additional observations from a re-analysis of the deposited data

Results flagged for a closer look

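In groups of 5 libraries, a library was singled out where its gap to the nearest other library exceeded 0.71 of the range of its group, which chance gives in about 1 in 20 groups. Of 64 groups of named stretches, 4 held such a library. At Peg10, Con-d21 replicate 4 was at 34.3% and the other Con-d21 libraries at 52.3 to 57.3%. At Snrpn, AME-d21 replicate 1 was at 61.1%, with 40.2 to 46.2% in the others of its group, and AME-d0 replicate 5 at 53.9%, with 27.9 to 33.7% in the other AME-d0 libraries. At Inpp5f, AME-d0 replicate 5 was at 48.4%, with 32.9 to 34.4% in the others.

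Among whole-library measures, AME-d21 replicate 4 had 2.86 X reads per 100 autosomal reads and 16.3 reads per 1000000 on the Y short arm, where the other AME-d21 libraries had 1.52 to 1.53 and 191 to 216. Mean methylation over shared CpGs was 38.5% in AME-d21 replicate 3, with 38.2% in the others, and 35.3% in Con-d0 replicate 5, with 33.8 to 34.0% in the others.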

How the results depend on the processing

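Of 1728 differences of a stretch under an alternative, 1544 kept their direction and side of the threshold, 24 were no longer called, 21 became called, 139 uncalled ones changed sign and 0 called ones reversed. Nap1l5, Inpp5f, Cdkn1c and Slc38a4 stretch 1 were called with age under all alternatives run for them, 14 in AME and 13 in Con. The number of stretches was 20 with at least 10 CpGs and 23 to 48 under the other rules. Stretches called with age in AME numbered 15 of the 48 found with at least 3 CpGs. In Con they numbered 8 of the 38 found with 5 reads and 7 of the 35 with 25 to 75%. They numbered 11 of the 48 with at least 3 CpGs and 2 of the 20 with at least 10 CpGs. Bins called numbered 35 in AME and 25 in Con with at least 5 CpGs, and 60 and 47 with 20 reads. Cytosines called in AME numbered 197 by the likelihood-ratio test (percent called 15.6), 29 with 20 reads, 14 without AME-d0 replicates 1 and 3 (percent called 1.52) and 138 by limma (percent called 10.6). In Con they numbered 176 by the likelihood-ratio test (percent called 14), 30 with 20 reads and 119 by limma (percent called 9.67). Rules for coverage, stretches and bins change the number of features tested, and shares over the genome under them are not given here. Counts under such rules were therefore not read against each other. Between AME and Con the likelihood-ratio test gave 1 at d0 and 2 at d21.

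Leaving out 1 library gave 6 to 10 stretches in AME (percent called 69.3 to 70.6) and 4 to 6 in Con (percent called 69 to 70.6). It gave 85 to 95 bins in AME (percent called 40.6 to 44.6) and 68 to 78 in Con (percent called 39 to 43). Cytosines numbered 33 to 38 in AME and 36 to 45 in Con, the drop being under every library left out, with fewer libraries in the fit. Between AME and Con all stayed at 0. The labels do not say what libraries with the same replicate number share. Between AME and Con, deviations of same-numbered libraries correlated at -0.0145 to 0.0687 at d0 and -0.036 to 0.0147 at d21, over 0.1 in 0 of 5 pairs at each age. Libraries with other numbers correlated at -0.06 to 0.0366 at d0 and -0.0332 to 0.0406 at d21. The best match had the same number for 3 of 5 AME libraries at d0 and 2 of 5 at d21. With the replicate number as a block, 8 stretches were called in AME and 5 in Con, 92 and 75 bins, 130 and 120 cytosines by limma (chosen after seeing the data), and 0 between AME and Con. Shares over the genome with this block are not given here. Depth limits single CpGs, with a median of 37 reads at the deepest CpG of a stretch.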
